A study of Homo sapiens with 12 samples.

Results

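The genes of 8 G protein-coupled receptors are described here in a human melanoma line and its drug-resistant derivatives: NTSR1, OXTR, F2R, F2RL1, F2RL3, ADGRG1, ACKR3 and CXCR4. They were chosen by their read counts, which set the lines apart in the 4 groups, so what follows gives their levels and fold changes as a description, without a test, and tests only genes outside the 8. All 8 receptors had 1 entry each among the 23497 genes of the deposited table, and all 8 were among the 17114 genes with enough counts to be fitted.

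The cells were WM1366, an established NRAS-mutant melanoma line, in 4 groups of 3 libraries, 12 libraries in all. The EB-resistant derivative was seeded in medium with encorafenib and binimetinib, the VC-resistant derivative with vemurafenib and cobimetinib, and the DT-resistant derivative with dabrafenib and trametinib. Each pair joins an inhibitor of the kinase BRAF with an inhibitor of the kinase MEK, and cells of all groups were lysed 72 h after seeding. The sensitive group was the WM1366 parent in DMSO. There was 1 line for each drug pair, so resistance, the drug itself and culture history cannot be told apart, and standard errors describe the spread between the libraries of a line, labelled as replicates 2, 5 and 6, not between separately derived lines. Library totals ran from 40491309 to 54495132 counts. Of the melanocytic marker list, 5 of 9 genes were in the table, with a summed level of 51.4 to 57.9 CPM (reads relative to the scaled total of the library) in EB-resistant, 62.7 to 73.2 in VC-resistant, 64.5 to 71.0 in DT-resistant and 41.4 to 52.6 in sensitive libraries. The lineage markers SOX10, MLANA, TYR and S100B, also on this list, had no entry in the table and are not in the sums. The leukocyte list summed to at most 1.42 CPM in any library, and the fibroblast list to 528 to 591 CPM in EB-resistant, 281 to 314 in VC-resistant, 362 to 468 in DT-resistant and 110 to 149 in sensitive libraries. Of the epithelial list, 3 of 6 genes were in the table, and only the keratin genes KRT8 and KRT18 had enough counts to be fitted. EPCAM, KRT5 and KRT14 had no entry. The list summed to 182 to 207 CPM in EB-resistant, 79.0 to 96.4 in VC-resistant, 62.3 to 67.3 in DT-resistant and 269 to 348 in sensitive libraries. The endothelial list summed to 3.48 to 3.74 CPM in EB-resistant, 2.63 to 4.03 in VC-resistant, 4.93 to 7.98 in DT-resistant and 2.26 to 2.42 in sensitive libraries, and the platelet list to at most 2.81 CPM, in EB-resistant cells, and at most 0.829 CPM elsewhere. Whether cells of another type had a part in any difference was not tested, and in bulk RNA fewer expressing cells and less RNA per cell cannot be told apart.

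G protein-coupled receptors span the membrane and pass an outside signal to heterotrimeric G proteins, to arrestins, or to both. The protease-activated receptors F2R (PAR1), F2RL1 (PAR2), F2RL2 (PAR3) and F2RL3 (PAR4) carry their own ligand, which a protease such as thrombin or trypsin uncovers by cutting the receptor's outer end. NTSR1 and OXTR are receptors of the peptides neurotensin and oxytocin and couple mainly to Gq. ADGRG1 (GPR56) is an adhesion receptor that binds collagen III and transglutaminase 2 and restrains melanoma growth and metastasis in mouse xenografts. CXCR4 and ACKR3 both bind the chemokine CXCL12, CXCR4 signalling through Gi and ACKR3 acting mostly as a scavenger that recruits arrestin.

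The start regions of 5 of the genes are shown because their transcripts were near absent in at least 1 resistant line (NTSR1, F2RL3, CXCR4) or rose most steeply among the receptors with an entry (OXTR, F2RL1). Each is a RefSeq window on GRCh38.p14, 250 bases before to 50 bases after an annotated start, and 6 of the 8 receptors had such an entry; where a gene had several windows, the one nearest the start of the gene model was used. Capitals mark matches on either strand to 6 motifs chosen after the levels had been seen: AP-1, CRE, GC box, TATA box, E-box and ETS.
NTSR1, chr20:62708586-62708885, plus strand: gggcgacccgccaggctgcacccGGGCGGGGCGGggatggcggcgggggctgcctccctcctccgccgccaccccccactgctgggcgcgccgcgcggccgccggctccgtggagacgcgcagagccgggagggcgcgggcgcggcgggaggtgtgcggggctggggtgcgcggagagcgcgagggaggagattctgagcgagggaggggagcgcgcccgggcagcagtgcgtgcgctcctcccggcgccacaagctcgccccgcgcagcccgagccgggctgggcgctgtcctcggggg
F2RL3, chr19:16888749-16889048, plus strand: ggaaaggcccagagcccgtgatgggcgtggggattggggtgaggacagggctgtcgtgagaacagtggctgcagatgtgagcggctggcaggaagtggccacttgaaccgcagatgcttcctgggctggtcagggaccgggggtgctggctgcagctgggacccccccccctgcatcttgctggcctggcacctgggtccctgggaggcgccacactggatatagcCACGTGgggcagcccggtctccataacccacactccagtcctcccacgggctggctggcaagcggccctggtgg
CXCR4, chr2:136118100-136118399, minus strand: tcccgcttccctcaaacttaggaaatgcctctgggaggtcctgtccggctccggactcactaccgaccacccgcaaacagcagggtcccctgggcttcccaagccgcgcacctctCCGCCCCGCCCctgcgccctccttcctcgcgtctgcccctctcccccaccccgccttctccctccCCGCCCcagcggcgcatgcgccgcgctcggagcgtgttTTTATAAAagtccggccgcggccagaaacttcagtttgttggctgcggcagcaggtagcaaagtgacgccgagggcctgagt
OXTR, chr3:8769564-8769863, minus strand: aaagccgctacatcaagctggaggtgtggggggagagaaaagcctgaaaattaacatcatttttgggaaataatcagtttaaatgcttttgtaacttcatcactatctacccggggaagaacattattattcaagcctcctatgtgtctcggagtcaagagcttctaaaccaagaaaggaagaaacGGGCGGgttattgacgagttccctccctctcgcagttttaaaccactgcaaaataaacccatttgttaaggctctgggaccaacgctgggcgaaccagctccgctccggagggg
F2RL1, chr5:76818780-76819079, plus strand: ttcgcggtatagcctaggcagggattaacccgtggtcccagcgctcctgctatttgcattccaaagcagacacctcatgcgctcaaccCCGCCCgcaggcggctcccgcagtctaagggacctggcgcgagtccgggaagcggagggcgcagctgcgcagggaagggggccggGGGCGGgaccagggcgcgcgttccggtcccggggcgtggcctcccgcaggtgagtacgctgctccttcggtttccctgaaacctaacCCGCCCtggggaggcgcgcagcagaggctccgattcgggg

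The NTSR1 window held 2 GC boxes that share 1 base, the OXTR window held 1, the F2RL1 window held 3, and the CXCR4 window held 3, of which 2 share 1 base. That motif, searched as GGGCGG, was present in 45% of all 35116 windows. The capitals in the F2RL3 window are an E-box, searched as CACGTG, which begins 24 bases before the start and which 7.26% of windows contain. The capitals nearest the start in the CXCR4 window are 2 overlapping TATA boxes on opposite strands, which begin 32 and 30 bases before the start. The AP-1, CRE and ETS motifs had no match in these 5 windows. Of all windows, 7.71% held the AP-1 motif TGANTCA on either strand. The CRE motif TGACGTCA was found in 1.85% of windows. The TATA box, searched as TATAAA, was found in 11.5% of windows. The ETS motif, searched as CCGGAAG, was found in 10.3% of windows. GC content was 81.7% for NTSR1, 67.3% for F2RL3, 66.7% for CXCR4, 46.3% for OXTR and 69.0% for F2RL1, beside a median of 58.7% over all windows. A match describes letters only and says nothing of binding.

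The 8 receptors divided evenly by direction. NTSR1, ADGRG1, CXCR4 and F2RL3 were lower, and OXTR, F2R, F2RL1 and ACKR3 higher, in each resistant line than in the sensitive parent, with no overlap between the 3 libraries of either group. How many of all genes lacked such overlap was not counted, so nothing is read from it. All 8 were also past an adjusted p of 0.05 in edgeR's quasi-likelihood test in each of these comparisons, which the way they were picked makes no finding: among all 17114 genes 28.5% rose and 27.6% fell in EB-resistant cells, 27.6% rose and 27.4% fell in VC-resistant cells, and 29.8% rose and 29.3% fell in DT-resistant cells. What set the receptors apart from each other was how far each moved in each line, which the plots of counts and of fold changes show.

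**Figure D1:**
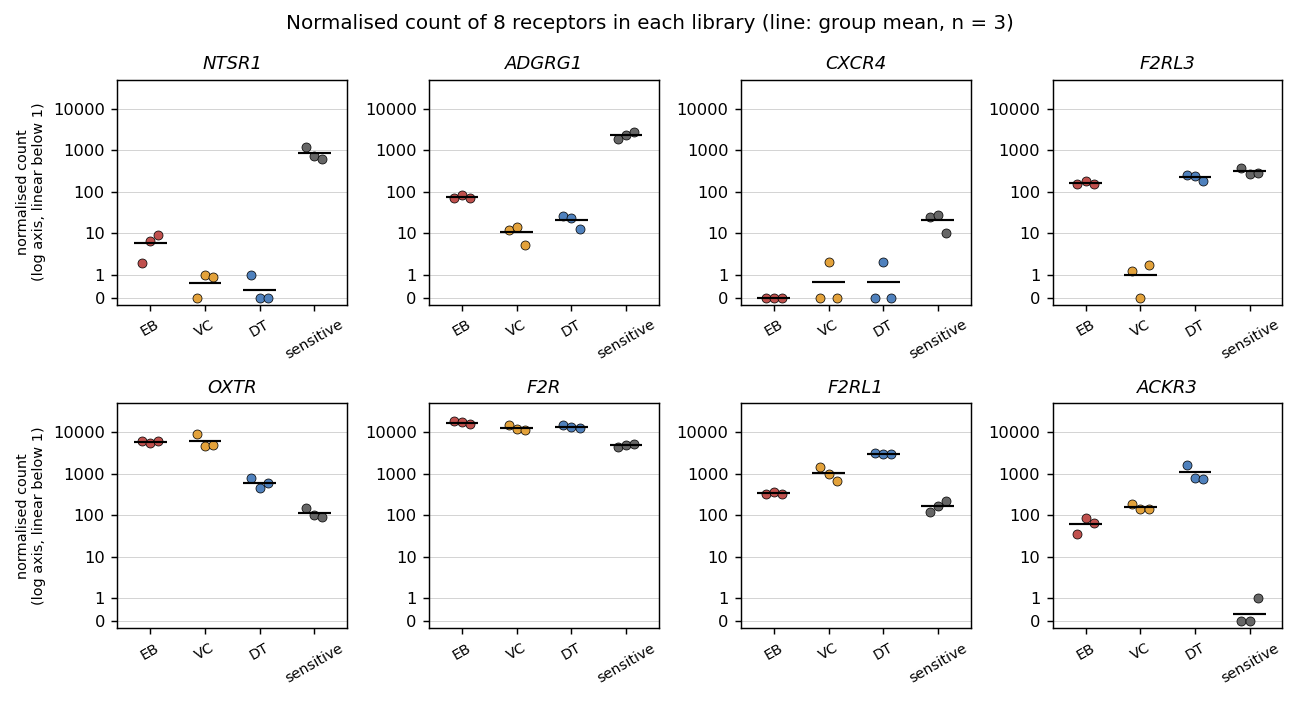
Deposited normalised counts (log axis, linear below 1) of the 8 receptors in each of the 12 libraries, by group, with a line at the mean of 3 libraries. NTSR1 stays below 10 in all 9 resistant libraries, ACKR3 reaches at most 1 in the sensitive libraries, and F2RL3 is near 0 in the VC-resistant libraries alone.

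NTSR1 (ENSG00000101188, chr20:62708836-62762771, plus strand, hg38) was close to silent in resistant cells. Its normalised counts, which are read counts divided by the authors' size factor for the library, were 1.9, 6.6 and 8.8 in EB-resistant, 0, 1.0 and 0.9 in VC-resistant and 1.0, 0 and 0 in DT-resistant libraries, against 1207.1, 728.2 and 612.6 in sensitive libraries. Every resistant library lay far below every sensitive one. In the EB-resistant line the log2 fold change was -7.18 ± 0.38 (SE), a level 145-fold lower. In the VC-resistant line 2 reads in all were counted, and the level was 1260-fold lower than in sensitive cells (95% counting interval 349 to 10400). The DT-resistant line had 1 read, in replicate 2, for a ratio of 2500 (448 to 98800). Without that library the line stands at 0 reads and the level is at least 271-fold lower, taken against 3 reads per library. The EB-resistant trace was itself 8.53-fold above the VC-resistant level (2.04 to 75.8) and 16.9-fold above the DT-resistant level (2.67 to 704), a bound of at least 1.83-fold without DT-resistant replicate 2. All these intervals cover counting error only.

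ADGRG1 (ENSG00000205336, chr16:57610652-57665580, plus strand) also fell in every line but kept a measurable level. Normalised counts were 70.4, 84.2 and 71.1 in EB-resistant, 12.2, 14.1 and 5.1 in VC-resistant and 25.7, 23.3 and 12.8 in DT-resistant libraries, against 1855.0, 2302.2 and 2717.4 in sensitive libraries. The EB-resistant libraries stood above the other resistant ones, while VC-resistant and DT-resistant libraries overlapped. Log2 fold changes against sensitive cells were -4.94 ± 0.20 in EB-resistant cells, -7.81 ± 0.26 in VC-resistant cells and -6.79 ± 0.24 in DT-resistant cells. Between the lines, EB-resistant cells were 7.30-fold above VC-resistant and 3.61-fold above DT-resistant cells, and the VC-resistant to DT-resistant difference was -1.02 ± 0.38 on the log2 scale.

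CXCR4 (ENSG00000121966, chr2:136114349-136118149, minus strand) was low throughout. Its raw counts were 0, 0 and 0 in EB-resistant, 0, 2 and 0 in VC-resistant and 0, 2 and 0 in DT-resistant libraries, against 25, 30 and 10 in sensitive libraries. The sensitive libraries averaged 0.452 CPM, so the parent itself gave few reads of this chemokine receptor. The level was at least 7.34-fold lower in EB-resistant cells, taken against 3 reads per library, 31.3-fold lower in VC-resistant cells (8.33 to 264) and 31.0-fold lower in DT-resistant cells (8.25 to 262). Each of the last 2 ratios rests on the reads of replicate 5, and without it the bounds are at least 6.93-fold in VC-resistant and at least 6.88-fold in DT-resistant cells. No fold can be given between the resistant lines.

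F2RL3 (ENSG00000127533, chr19:16888999-16892606, plus strand), the thrombin receptor PAR4, was near absent in the VC-resistant line and measurable in the other resistant lines. Normalised counts were 154.3, 185.5 and 150.9 in EB-resistant, 1.2, 0 and 1.7 in VC-resistant and 247.6, 241.6 and 179.8 in DT-resistant libraries, against 376.8, 271.9 and 289.2 in sensitive libraries. The VC-resistant line, with 3 reads in all, was 310-fold below sensitive cells (106 to 1500). It was 161-fold below EB-resistant cells (54.9 to 786) and 222-fold below DT-resistant cells (75.5 to 1080). With a library left out, the ratio to sensitive cells was 206 to 563, that to EB-resistant cells 107 to 293 and that to DT-resistant cells 148 to 404, each lowest without VC-resistant replicate 5 and highest without VC-resistant replicate 6. The other resistant lines fell far less, with log2 fold changes of -0.95 ± 0.19 in EB-resistant and -0.49 ± 0.19 in DT-resistant cells. These are levels 1.93-fold and 1.41-fold lower than in sensitive cells. EB-resistant and DT-resistant libraries overlapped with each other.

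**Figure D2:**
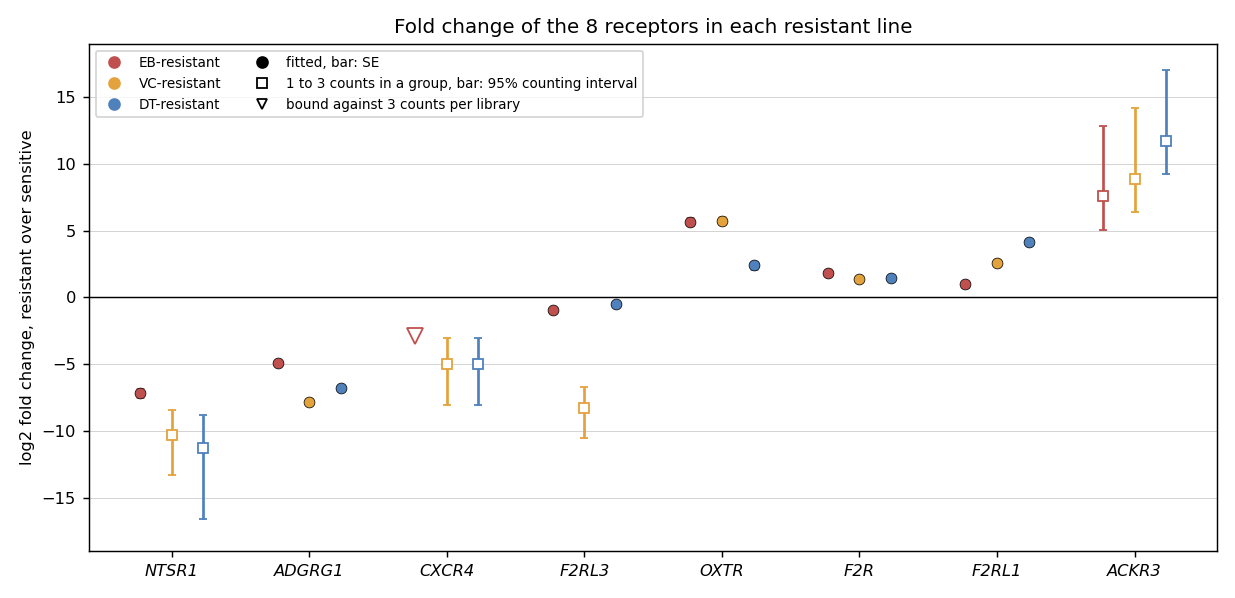
Log2 fold change of each receptor in each resistant line over the sensitive line. Filled circles are fitted values with standard errors, mostly smaller than the symbol, open squares are ratios where a group had 1 to 3 reads with 95% counting intervals, and the open triangle is the CXCR4 bound of at least 7.34-fold lower in EB-resistant cells. F2RL3 has values in separate ranges, at -0.95 in EB-resistant and -0.49 in DT-resistant cells and far lower in VC-resistant cells.

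OXTR (ENSG00000180914, chr3:8750381-8769628, minus strand) rose in every line, most in 2 of them. Normalised counts were 6294.6, 5605.8 and 6051.0 in EB-resistant, 8960.2, 4637.6 and 4981.5 in VC-resistant and 778.4, 459.8 and 587.3 in DT-resistant libraries, against 147.5, 104.0 and 93.4 in sensitive libraries. The EB-resistant and VC-resistant libraries overlapped each other and lay above all others, and the DT-resistant libraries formed a step between them and the sensitive ones. Log2 fold changes over sensitive cells were 5.69 ± 0.33 in EB-resistant cells, 5.75 ± 0.33 in VC-resistant cells and 2.40 ± 0.32 in DT-resistant cells. The DT-resistant level was 9.80-fold below the EB-resistant and 10.2-fold below the VC-resistant level. EB-resistant and VC-resistant cells differed by -0.06 ± 0.26 on the log2 scale. The sign of that small difference turned without VC-resistant replicate 2, which held the highest count, to 0.29. The gene overlaps CAV3 on the opposite strand, but CAV3 had only 3, 23 and 5 counts in EB-, VC- and DT-resistant cells and 1 count in sensitive cells, summed over 3 libraries. Reads of overlapping genes can be told apart only where counting used strand, which the sources used here do not state.

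F2R (ENSG00000181104, chr5:76716126-76735770, plus strand) was the most abundant of the 8 in every group, per length of gene model. Normalised counts were 18679.4, 17356.0 and 15773.4 in EB-resistant, 15485.2, 12336.7 and 11439.9 in VC-resistant and 14920.6, 13720.5 and 12826.8 in DT-resistant libraries, against 4511.5, 4980.3 and 5246.0 in sensitive libraries. All resistant libraries were above all sensitive ones, and EB-resistant libraries were above those of the other resistant lines. The rise was alike in size in the 3 lines, 1.80 ± 0.11 in EB-resistant cells, 1.41 ± 0.10 in VC-resistant cells and 1.49 ± 0.10 in DT-resistant cells on the log2 scale. VC-resistant and DT-resistant libraries overlapped and differed by -0.07 ± 0.10. A long noncoding RNA gene lies on the opposite strand of F2R, with 49, 14 and 13 counts in EB-, VC- and DT-resistant cells and 5 counts in sensitive cells.

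F2RL1 (ENSG00000164251, chr5:76818933-76835315, plus strand), PAR2, which trypsin-like proteases rather than thrombin activate, showed a graded rise. Normalised counts were 320.1, 373.8 and 329.0 in EB-resistant, 1434.2, 982.2 and 670.5 in VC-resistant and 3235.1, 3060.2 and 2982.2 in DT-resistant libraries, against 122.6, 167.0 and 218.9 in sensitive libraries. No 2 groups overlapped. Log2 fold changes over sensitive cells were 1.00 ± 0.26 in EB-resistant cells, 2.59 ± 0.26 in VC-resistant cells and 4.18 ± 0.27 in DT-resistant cells. The DT-resistant line, lowest of the 3 for OXTR, was highest for F2RL1. DT-resistant cells were 9.10-fold above EB-resistant and 3.01-fold above VC-resistant cells.

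ACKR3 (ENSG00000144476, chr2:236567787-236582354, plus strand) was at a clear level in each derivative and near absent in the parent. Normalised counts were 34.7, 84.2 and 66.2 in EB-resistant, 186.1, 142.2 and 141.1 in VC-resistant and 1679.2, 817.1 and 755.4 in DT-resistant libraries, against 0, 0 and 1.0 in sensitive libraries. No 2 groups overlapped, and the 4 groups ran in the same order as for F2RL1. Against the single sensitive read the ratios were 190 in EB-resistant (33.7 to 7540), 476 in VC-resistant (85.1 to 18900) and 3370 in DT-resistant cells (605 to 133000). That read came from sensitive replicate 6, and without this library the levels are at least 21.6-fold, 54.2-fold and 382-fold higher in EB-, VC- and DT-resistant cells. Between the resistant lines the fitted log2 differences were -1.34 ± 0.36 for EB-resistant over VC-resistant, -4.14 ± 0.36 for EB-resistant over DT-resistant and -2.79 ± 0.33 for VC-resistant over DT-resistant cells. ACKR3 and CXCR4, the CXCL12 receptors, stood in opposite order: per kilobase of gene model, ACKR3 was at 0.643, 1.64 and 11.3 CPM in EB-, VC- and DT-resistant cells and 0.0035 CPM in sensitive cells, and CXCR4 at 0, 0.0066 and 0.0067 CPM in EB-, VC- and DT-resistant cells and 0.205 CPM in sensitive cells.

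Pair by pair, the resistant lines differed among themselves in part of the 8. At an adjusted p under 0.05 in edgeR, 4 were called higher and 2 lower in EB-resistant than in VC-resistant cells. The numbers were again 4 higher and 2 lower in EB-resistant than in DT-resistant cells. In VC-resistant over DT-resistant cells 1 was called higher and 3 lower. These receptors were picked for such differences, and nothing is read from these counts. Among all genes, 29.6% were called higher and 28.8% lower in EB-resistant than in VC-resistant cells, 28.4% higher and 28.8% lower in EB-resistant than in DT-resistant cells, and 7.08% higher and 8.71% lower in VC-resistant than in DT-resistant cells, which is 58.4%, 57.2% and 15.8% in either direction. The 4 receptors without overlap between VC-resistant and DT-resistant libraries were OXTR, higher in VC-resistant cells, and F2RL1, F2RL3 and ACKR3, lower in VC-resistant cells. The share of all genes without overlap between these lines was not counted, so nothing is read from that number. ADGRG1 libraries overlapped between these lines, and the gene was not called. By replicate number, which the data pair between these lines, its normalised counts were 12.2 in VC-resistant against 25.7 in DT-resistant, 14.1 against 23.3 and 5.1 against 12.8. These pairs describe a receptor chosen from the same values and are no test of a difference.

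The 4 protease-activated receptors were then set side by side as CPM per kilobase. F2RL2 (ENSG00000164220, chr5:76615482-76623413, minus strand), the family's remaining member, which in mouse platelets serves as a cofactor for PAR4, was not among the 8 and could be tested. Its normalised counts were 3223.9, 2210.9 and 1734.4 in EB-resistant, 5437.5, 4388.5 and 3975.8 in VC-resistant and 3916.9, 3822.4 and 4098.3 in DT-resistant libraries, against 785.5, 1008.3 and 1071.5 in sensitive libraries. Resistant and sensitive libraries did not overlap. F2RL2 rose by 1.31 ± 0.20 in EB-resistant (adjusted p = 0.000185, edgeR's quasi-likelihood test with Benjamini-Hochberg adjustment, as in all tests given here), by 2.27 ± 0.21 in VC-resistant (adjusted p = 3.93e-06 in edgeR) and by 2.04 ± 0.21 in DT-resistant cells (adjusted p = 6.64e-06 in edgeR) on the log2 scale. It was lower in EB-resistant than in VC-resistant cells (log2 fold change -0.95, edgeR adjusted p = 0.00149) and than in DT-resistant cells (-0.73, edgeR adjusted p = 0.00827). VC-resistant over DT-resistant was 0.23 ± 0.20 (edgeR adjusted p = 0.508), in which VC-resistant and DT-resistant libraries overlapped. With only VC-resistant and DT-resistant libraries and replicate number as a block, F2RL2 stood at 0.22 ± 0.09 (edgeR adjusted p = 0.0877). That alternative was chosen after seeing the data. F2RL2 was called in neither fit, which does not show equal levels.

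**Figure D3:**
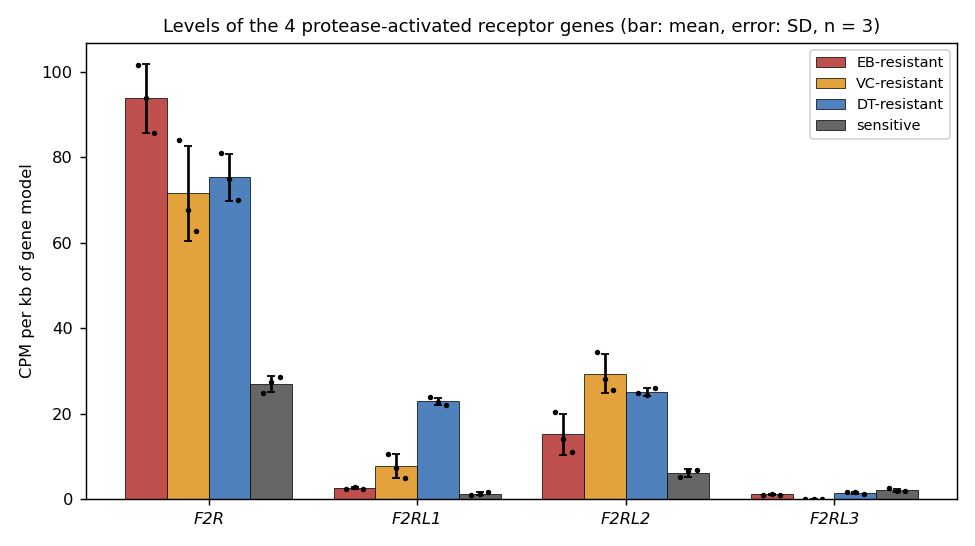
CPM per kilobase of gene model of the 4 protease-activated receptor genes, as group means with SD (n = 3) and a dot per library. F2R stands highest in each group, F2RL1 reaches 22.8 in DT-resistant cells, and F2RL3 is the lowest bar in every group but the sensitive one.

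The summed level of the family was 112 ± 12.7 CPM per kilobase in EB-resistant cells, 109 ± 18.5 in VC-resistant cells and 125 ± 6.10 in DT-resistant cells, and 36.3 ± 2.88 in sensitive cells (SD, n = 3 each). The sums of the 3 resistant lines lay within their spread of each other, but their make-up differed. F2R gave 83.6% ± 2.34 of the sum in EB-resistant cells, 66.1% ± 1.15 in VC-resistant cells and 60.4% ± 1.56 in DT-resistant cells, and 74.2% ± 0.587 in sensitive cells. F2RL1 gave 2.25% ± 0.321 in EB-resistant cells, 6.87% ± 1.43 in VC-resistant cells and 18.3% ± 0.174 in DT-resistant cells, and 3.43% ± 0.705 in sensitive cells. So F2RL1 counts in EB-resistant cells were higher than in the parent while its share of the family was lower. F2RL2 made up 13.2% ± 2.75, 27.1% ± 0.344 and 20.1% ± 1.53 in EB-, VC- and DT-resistant cells and 16.7% ± 1.36 in sensitive cells. F2RL3 made up 0.948% ± 0.138, 0.00603% ± 0.006 and 1.16% ± 0.156 in EB-, VC- and DT-resistant cells and 5.70% ± 1.5 in sensitive cells.

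Ranked by CPM per kilobase among 146 receptor genes in the table, F2R stood at place 1 in EB-, VC- and DT-resistant cells and at place 2 in sensitive cells, behind the orphan receptor GPR176. OXTR held place 4 in EB-resistant cells, 2 in VC-resistant cells and 33 in DT-resistant cells, and place 60 in sensitive cells. F2RL1 stood at 31, 22 and 7 in EB-, VC- and DT-resistant cells and 42 in sensitive cells, and ACKR3 at 58, 38 and 17 in EB-, VC- and DT-resistant cells and 132 in sensitive cells. ADGRG1 stood at 78, 99 and 89 in EB-, VC- and DT-resistant cells and 26 in sensitive cells. NTSR1 stood at 109, 126 and 133 in EB-, VC- and DT-resistant cells and 30 in sensitive cells. F2RL3 stood at 47, 121 and 41 in EB-, VC- and DT-resistant cells and 36 in sensitive cells. CXCR4 stood at 136, 120 and 118 in EB-, VC- and DT-resistant cells and 76 in sensitive cells. The receptors placed here were picked by their read counts in these same groups, so nothing is read from their change of place.

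The partners of the receptors were examined through a list of 44 genes for their ligands, activating proteases, co-receptors and inhibitors, of which 22 were in the table and 17 were tested. In EB-resistant cells 6 rose and 6 fell (70.6% called, beside 56.1% of all genes), in VC-resistant cells 4 rose and 6 fell (58.8%, beside 55% of all genes), and in DT-resistant cells 8 rose and 5 fell (76.5%, beside 59.1% of all genes). Their median log2 fold changes were 0.07, -0.07 and 0.17 in EB-, VC- and DT-resistant cells, and the medians of all genes were within 0.01 of 0. The genes of the peptide ligands neurotensin and oxytocin, of thrombin and of CXCL12 were on the list. They had no entry in the deposited table, so no level of them can be given.

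**Figure D4:**
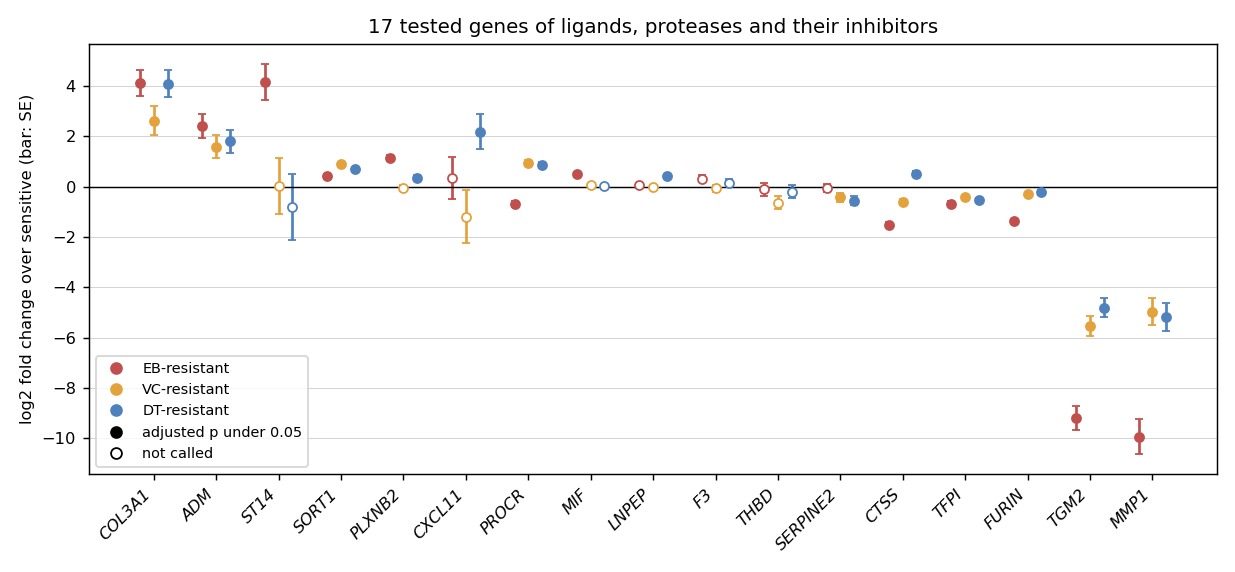
Log2 fold change over sensitive cells, with standard error, of the 17 tested genes of ligands, proteases and their inhibitors in each resistant line. Filled circles are called at an adjusted p under 0.05. TGM2 and MMP1 lie lowest in all 3 lines, and COL3A1, ADM and SORT1 are called higher in all 3.

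For ADGRG1, genes of both classical binding partners changed, in opposite directions. TGM2, encoding transglutaminase 2, averaged 3.93 ± 0.642 CPM in EB-resistant cells, 49.5 ± 9.91 in VC-resistant cells and 82.9 ± 38.6 in DT-resistant cells, and 2320 ± 223 CPM in sensitive cells (SD, n = 3 each). It fell by 9.20 ± 0.47 in EB-resistant (adjusted p = 1.74e-07 in edgeR), by 5.55 ± 0.39 in VC-resistant (2.6e-06) and by 4.81 ± 0.38 in DT-resistant cells (4.06e-06) on the log2 scale. COL3A1, for collagen III and also on the fibroblast list, rose by 4.13 ± 0.52, 2.63 ± 0.58 and 4.10 ± 0.52 in EB-, VC- and DT-resistant cells (edgeR adjusted p = 7.1e-06, 0.00135 and 8.8e-06). It averaged 1.16 CPM or less in each resistant line and 0.0646 CPM in sensitive cells, where 9 reads were counted. Leaving out sensitive replicate 2 moved these values to 5.09, 3.6 and 5.07. The plexin gene PLXNB2 rose in EB-resistant cells by 1.14 ± 0.11 (edgeR adjusted p = 5.22e-07) and in DT-resistant cells by 0.35 ± 0.11 (edgeR adjusted p = 0.0118), and stood at -0.05 ± 0.11 in VC-resistant cells (edgeR adjusted p = 0.733). The DT-resistant call was lost without sensitive replicate 6 (0.29) or DT-resistant replicate 2 (0.26).

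For the protease-activated receptors, MMP1, a collagenase that can also cut PAR1, averaged 2.32 ± 0.857 CPM in EB-resistant cells, 73.5 ± 31.8 in VC-resistant cells and 63.3 ± 35.3 in DT-resistant cells, and 2300 ± 223 CPM in sensitive cells. Its log2 fold changes were -9.95 ± 0.70 in EB-resistant (edgeR adjusted p = 2.28e-06), -4.97 ± 0.54 in VC-resistant (5.88e-05) and -5.18 ± 0.55 in DT-resistant cells (3.95e-05). F2R was higher in each of these lines, and a link between it and MMP1 was not tested. PROCR, the endothelial protein C receptor that brings activated protein C to PAR1, fell by 0.69 ± 0.12 in EB-resistant cells (edgeR adjusted p = 0.000198) and rose by 0.94 ± 0.12 in VC-resistant (1.46e-05) and 0.87 ± 0.12 in DT-resistant cells (2.37e-05). CTSS, for cathepsin S, which can cut PAR2, fell by 1.51 ± 0.10 in EB-resistant (edgeR adjusted p = 1.11e-08) and 0.61 ± 0.10 in VC-resistant cells (0.000121), and rose by 0.51 ± 0.10 in DT-resistant cells (0.000404). ST14, for matriptase, a membrane protease that activates PAR2, rose in EB-resistant cells, with 80 reads against 4 in sensitive cells (log2 fold change 4.17 ± 0.73, edgeR adjusted p = 0.000166), and had 4 and 2 reads in VC- and DT-resistant cells.

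The inhibitors TFPI and SERPINE2 and the processing enzyme FURIN were lower wherever they were called. TFPI, which inhibits the tissue factor pathway upstream of thrombin, fell by 0.67 ± 0.09, 0.42 ± 0.09 and 0.52 ± 0.09 in EB-, VC- and DT-resistant cells (edgeR adjusted p = 1.01e-05, 0.000853 and 0.000119). FURIN, a proprotein convertase, fell by 1.37 ± 0.09 in EB-resistant cells (edgeR adjusted p = 6.31e-09) and by 0.28 and 0.22 in VC- and DT-resistant cells (0.0129 and 0.0361). The VC-resistant call was lost without sensitive replicate 2 (-0.19). The DT-resistant call was near the threshold: it stood in 6 of the 12 fits that left out a library (-0.30 to -0.14), and was lost with no filter on low counts (edgeR adjusted p = 0.0617) and with only the 2 groups compared (0.0798). SERPINE2, an inhibitor of thrombin, fell by 0.43 ± 0.17 in VC-resistant and 0.55 ± 0.17 in DT-resistant cells (edgeR adjusted p = 0.0461 and 0.0133). The VC-resistant call stood in only 3 of the 12 fits that left out a library (-0.54 to -0.18), and was lost with no filter on low counts (edgeR adjusted p = 0.0867) and with only the 2 groups compared (0.0698). The DT-resistant call was lost without DT-resistant replicate 2 (-0.45). F3, the tissue factor gene, and THBD, the thrombomodulin gene, were not called in any line.

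For the peptide and chemokine receptors, SORT1, for sortilin, a sorting receptor that also binds neurotensin, rose by 0.43 ± 0.07 in EB-resistant (edgeR adjusted p = 4.71e-05), 0.90 ± 0.07 in VC-resistant (4.65e-08) and 0.72 ± 0.07 in DT-resistant cells (3.02e-07), while NTSR1 was near 0. LNPEP, an aminopeptidase that cleaves oxytocin, rose in DT-resistant cells by 0.43 ± 0.09 (edgeR adjusted p = 0.000774) and stood at 0.07 in EB-resistant and -0.01 in VC-resistant cells (edgeR adjusted p = 0.541 and 0.938), the lines with the highest OXTR. ADM, for adrenomedullin, which ACKR3 can take up, averaged 108 ± 16.6 CPM in EB-resistant cells, 61.6 ± 32.0 in VC-resistant cells and 70.9 ± 37.5 in DT-resistant cells, and 20.4 ± 7.02 CPM in sensitive cells. It rose by 2.41 ± 0.47, 1.59 ± 0.46 and 1.80 ± 0.47 on the log2 scale (edgeR adjusted p = 0.00191, 0.0167 and 0.0086), and the VC-resistant call was lost without VC-resistant replicate 2 (1.09), and also without either of sensitive replicates 2 and 5. MIF, a cytokine that binds CXCR4 and ACKR3, rose only slightly, by 0.49 ± 0.08 in EB-resistant cells (edgeR adjusted p = 5.21e-05). CXCL11, a chemokine ligand of ACKR3, had 45 reads in DT-resistant and 10 in sensitive cells (log2 fold change 2.19 ± 0.70, edgeR adjusted p = 0.0143), a call that was lost without sensitive replicate 5 (1.9) or DT-resistant replicate 2 (1.85).

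Other receptors and the signalling machinery also differed between the lines in both directions. Of 98 tested receptors outside the 8, 37 rose and 29 fell in EB-resistant (67.3%), 31 rose and 37 fell in VC-resistant (69.4%) and 33 rose and 35 fell in DT-resistant cells (69.4%). Over all 6 lists of partners, receptors, G proteins, effectors and regulators, 203 genes were tested, and 66.5%, 67.0% and 69.5% were called in EB-, VC- and DT-resistant cells, beside 56.1%, 55% and 59.1% of all genes. Between VC-resistant and DT-resistant cells 28.6% of the 203 were called, 31 higher and 27 lower in VC-resistant cells, beside 15.8% of all genes. In those 6 libraries alone, with replicate number as a block, an alternative chosen after seeing the data, 42 were higher and 40 lower, and over all genes 2100 were higher and 2317 lower in VC-resistant cells in place of 1211 and 1491.

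Named here are the genes that the naming rule picked in at least 2 of the 3 comparisons with sensitive cells. Among receptors, the adhesion receptor ADGRB2 rose by 1.98 ± 0.23, 2.17 ± 0.23 and 3.16 ± 0.24 in EB-, VC- and DT-resistant cells (edgeR adjusted p = 1.3e-05, 8.72e-06 and 3.26e-07), and ADGRE1 by 1.18 ± 0.22, 1.93 ± 0.22 and 2.26 ± 0.22 (0.000342, 5.82e-06 and 1.05e-06). ADGRL2, a latrophilin, had 3 reads in EB-resistant cells, all in replicate 5, against 613 in sensitive cells, a level 208-fold lower (70.8 to 1010), or at least 68.6-fold lower without that library, and fell by 1.79 ± 0.38 in VC-resistant and 3.52 ± 0.44 in DT-resistant cells (edgeR adjusted p = 0.00126 and 1.1e-05), and its DT-resistant value was -4.39 without DT-resistant replicate 2. The chemokine receptor CCR1 had 5, 3 and 3 reads in EB-, VC- and DT-resistant cells and 76 in sensitive cells, low throughout as CXCR4 was. LPAR3, a lysophosphatidic acid receptor, fell by 1.84 ± 0.10, 0.56 ± 0.09 and 1.59 ± 0.09 in EB-, VC- and DT-resistant cells (edgeR adjusted p = 6.32e-10, 0.000108 and 4.3e-09).

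Of 25 G protein subunits, 5 rose and 10 fell in EB-resistant, 8 rose and 8 fell in VC-resistant and 7 rose and 8 fell in DT-resistant cells. That is 60%, 64% and 60% of them, beside 56.1%, 55% and 59.1% of all genes. GNAL, a stimulatory alpha subunit, averaged 7.52 ± 1.91 CPM in EB-resistant cells, 13.3 ± 2.01 in VC-resistant cells and 25.8 ± 6.14 in DT-resistant cells, and 1.86 ± 0.537 CPM in sensitive cells, and rose in all 3 (edgeR adjusted p = 1.49e-05, 1.06e-06 and 6.02e-08). GNAI1, an inhibitory alpha subunit, rose by 0.85 ± 0.07, 0.83 ± 0.07 and 0.59 ± 0.07 in EB-, VC- and DT-resistant cells (edgeR adjusted p = 1.39e-07, 2.91e-07 and 6.84e-06). GNGT2, a gamma subunit, had 184, 8 and 0 reads in EB-, VC- and DT-resistant cells and 239 in sensitive cells, at least 25.3-fold lower in DT-resistant cells against 3 reads per library.

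Of 33 effectors, 12 rose and 11 fell in EB-resistant, 7 rose and 15 fell in VC-resistant and 9 rose and 15 fell in DT-resistant cells, or 69.7%, 66.7% and 72.7% of them, again beside 56.1%, 55% and 59.1% of all genes. PRKCA, the protein kinase C alpha gene downstream of Gq, rose by 1.13 ± 0.11, 0.67 ± 0.10 and 1.40 ± 0.11 in EB-, VC- and DT-resistant cells (edgeR adjusted p = 3.03e-07, 6.94e-05 and 4.8e-08). RASGRP3, a Ras exchange factor that responds to diacylglycerol, rose by 1.85 ± 0.27, 3.96 ± 0.26 and 3.52 ± 0.26 (3.36e-05, 1.49e-08 and 3.66e-08 in edgeR). ADCY3, an adenylyl cyclase, fell by 2.2 ± 0.13, 1.12 ± 0.12 and 1.67 ± 0.12 in EB-, VC- and DT-resistant cells (edgeR adjusted p = 1.72e-09, 2.23e-06 and 3.79e-08). Of 30 regulators, 8 rose and 11 fell, 9 rose and 11 fell, and 7 rose and 14 fell in EB-, VC- and DT-resistant cells, which is 63.3%, 66.7% and 70% beside the same shares of all genes. RGS proteins, which speed the switching off of G proteins, went both ways: RGS7 rose by 2.58 ± 0.13, 2.75 ± 0.13 and 2.17 ± 0.13 (edgeR adjusted p = 4.35e-10, 5.55e-10 and 4.65e-09), and RGS17 fell by 3.15 ± 0.23, 1.37 ± 0.21 and 2.00 ± 0.21 in EB-, VC- and DT-resistant cells (2.23e-08, 4.8e-05 and 1.43e-06). RGS10 fell in all 3 lines, and RGS12 fell in VC-resistant and DT-resistant cells and stood at -0.13 ± 0.12 in EB-resistant cells (edgeR adjusted p = 0.391).

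The genomic neighbours of the 8 receptors were tested as 28 protein-coding genes, up to 2 tested genes on each side. In EB-resistant cells 10 rose and 10 fell, in VC-resistant cells 10 rose and 5 fell and in DT-resistant cells 12 rose and 8 fell. These are 71.4%, 53.6% and 71.4% of the neighbours, beside 56.1%, 55% and 59.1% of all genes. CPAMD8, whose end lies 0.345 kb from that of F2RL3 on the opposite strand (chr19:16892951-17026815), was, like F2RL3, lowest in VC-resistant cells. It had 62, 7 and 92 reads in EB-, VC- and DT-resistant cells and 79 in sensitive cells. Its log2 fold change was -3.37 ± 0.62 in VC-resistant cells (edgeR adjusted p = 0.000323), beside -0.38 ± 0.45 in EB-resistant (0.498) and 0.29 ± 0.43 in DT-resistant cells (0.589). EB-resistant cells were above VC-resistant cells (2.99 ± 0.64, edgeR adjusted p = 0.000912). VC-resistant over DT-resistant was -3.66 ± 0.61 (edgeR adjusted p = 0.000769). In those 6 libraries alone with replicate number as a block it was -3.66 ± 0.63 (edgeR adjusted p = 0.00105). SIN3B, the neighbour on the other side, stood at 0.12 ± 0.12 in VC-resistant cells (edgeR adjusted p = 0.406). Without VC-resistant replicate 2 the CPAMD8 value was -4.09.

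F2RL2, F2R and F2RL1 lie within 220 kb of each other on chromosome 5, each higher in every resistant line. IQGAP2, a scaffold protein gene that overlaps F2RL2 on the opposite strand, rose by 1.44 ± 0.37, 1.86 ± 0.37 and 2.29 ± 0.36 in EB-, VC- and DT-resistant cells (edgeR adjusted p = 0.00386, 0.000527 and 5.99e-05) at 1.14 CPM or less on average, or by 2.03, 2.45 and 2.88 without sensitive replicate 5. On the far side, CRHBP had only 40, 25 and 20 reads in EB-, VC- and DT-resistant cells and 18 in sensitive cells. It was not called in any line, at 1.10 ± 0.56, 0.52 ± 0.60 and 0.20 ± 0.62 (edgeR adjusted p = 0.108, 0.481 and 0.799), values too uncertain to show it unchanged. AGGF1 rose by 0.42, 0.25 and 0.42 (edgeR adjusted p = 0.000576, 0.0241 and 0.000565), the VC-resistant call being lost without sensitive replicate 2 or 5 (0.23 and 0.26) or VC-resistant replicate 5 or 6 (0.24 and 0.18). Beside CXCR4, at 647 kb, THSD7B rose in each line, to 13 ± 1.21 CPM in EB-resistant cells against 0.035 ± 0.0116 CPM in sensitive cells (edgeR adjusted p = 1.58e-11), so a neighbour of a lost receptor went the other way. Beside ACKR3, GBX2, a homeobox gene, was 3.38 ± 0.28 higher in VC-resistant (edgeR adjusted p = 1.88e-07) and 1.24 ± 0.29 higher in DT-resistant cells (0.00192), and 1.31 ± 0.36 lower in EB-resistant cells (0.00552), on the log2 scale. Beside NTSR1, SLCO4A1, an organic anion transporter gene, fell by 2.23 ± 0.19 in EB-resistant (edgeR adjusted p = 4.39e-07) and 0.87 ± 0.18 in DT-resistant cells (0.000967) and stood at -0.08 ± 0.17 in VC-resistant cells (0.705).

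Genes with the most similar pattern were sought by Pearson's r of log2 CPM over the 12 libraries among 11260 other genes with a mean of at least 5 CPM in some group (11261 for CXCR4, itself under that level). The 12 points fall into 4 groups, so r mainly follows the group means and is given as a description. NTSR1 was most like CNDP2 (0.9889) and MBD1 (0.9883), OXTR most like CHCHD10 (0.9791) and IGF2BP2 (0.9742), and F2R most like ABI3BP (0.9913) and CUL4B (0.9887). F2RL1 was most like CYTIP (0.991) and GALC (0.9908), and F2RL3 most like STK38L (0.9639) and FAM200B (0.9534), the lowest values among the 8. ADGRG1 was most like KIF5C (0.9897) and MLPH (0.9891), ACKR3 most like FKBP14 (0.9896) and GNAL (0.9894), and CXCR4 most like SASH1 (0.9749) and SIPA1L3 (0.973). CYTIP shared the steep gradient of F2RL1, at 0.103 ± 0.0339 CPM in EB-resistant cells, 1.17 ± 0.502 in VC-resistant cells and 5.70 ± 0.844 in DT-resistant cells, and 0.0284 ± 0.0131 CPM in sensitive cells. STK38L shared only the order of F2RL3, at 22.1 ± 0.564 CPM in EB-resistant cells, 15.0 ± 0.39 in VC-resistant cells and 24.0 ± 2.02 in DT-resistant cells, and 25.8 ± 2.90 CPM in sensitive cells, and did not approach 0.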

How the data were processed

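Polyadenylated RNA of the 12 libraries was prepared with a strand-specific kit, per the labels' protocols. Per the submitters' processing notes, the tools were bcl2fastq 2.20.0, STAR 2.7.10b, featureCounts 2.0.1 and DESeq2 1.38.3, and the genome was hg38. The authors deposited raw counts per gene together with normalised counts, a signal that equals the deposited count divided by a DESeq2 size factor. Not given in the sources used here are the annotation release and the counting's strand setting.

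From the raw counts, genes with few reads were removed by filterByExpr, library sizes were TMM-scaled, and edgeR 4.0.16 under R 4.3.3 fitted group means over the 12 libraries jointly (with limma 3.58.1; 8 residual degrees of freedom). Quasi-likelihood tests were adjusted by Benjamini-Hochberg over 17114 genes at a threshold of 0.05. CPM use TMM-scaled totals, and CPM per kb divide by the gene length in the table. A group at 0 reads is given as a bound against 3 reads per library, and a group with 1 to 3 reads as a ratio with its exact 95% counting interval, which covers counting error only. The fit was tested on simulated data for EB-resistant over sensitive cells over 16028 genes: it called 33 of 49 genes raised 1.5-fold, 40 of 48 raised 2-fold, 47 of 49 raised 4-fold, 49 of 50 lowered 4-fold and 19 of 15832 left unchanged. The simulation held only the EB-resistant and sensitive libraries and left most genes unchanged, unlike the fit over 12 libraries. Its rates need not hold for that fit. Library totals were 40491309 to 54495132 counts. Per the labels, the libraries of a group are independent experiments. Deviations of same-numbered VC-resistant and DT-resistant libraries correlated at 0.151 to 0.337, so the data pair these 2 lines, and no other pair of groups met the limit of 0.1 throughout.

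The receptors and gene lists were chosen with earlier results of these data known. Named beside the 8 receptors are F2RL2, the called ligand and protease genes, of each other list up to 2 genes per direction with the lowest adjusted p in each comparison with sensitive cells, and the 2 most similar genes of each receptor. Of the other lists, the text gives those picked in at least 2 comparisons, a limit set after the values were seen, as were the neighbouring genes given. Alternatives were DESeq2 size factors in edgeR, no filter, DESeq2 1.42.0 Wald tests, a replicate block, the 2 compared groups alone and each library left out. Figures used matplotlib 3.10.9.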

Additional observations from a re-analysis of the deposited data

How the results depend on the processing

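No fitted fold change of the 8 receptors moved by over 1.5 times under any alternative run: DESeq2 size factors, no filter on low counts, the DESeq2 Wald test, a replicate block, only the 2 groups compared, or leaving out a library. The sign of 2 small differences turned. OXTR in EB-resistant over VC-resistant cells, -0.06 on the log2 scale, was 0.00687 with a replicate block and -0.24 to 0.29 with a library left out, highest without VC-resistant replicate 2. F2R in VC-resistant over DT-resistant cells, -0.07, ranged between -0.21 and 0.0153 with a library left out, highest without VC-resistant replicate 6. The cause was not tested. Counts of called genes stayed within 1.5 times except between VC-resistant and DT-resistant cells. There, 16 receptor-pathway genes were lower in VC-resistant cells with only the 2 groups compared, in place of 27. In the VC-resistant and DT-resistant libraries alone with a replicate block, an alternative chosen after seeing the data, 2100 genes were higher and 2317 lower, in place of 1211 and 1491. With a library left out, 756 to 1306 were higher and 966 to 1596 lower, lowest without VC-resistant replicate 6 in both directions. Beyond this the replicate block moved no count of calls by over 1.5 times. Of 3381 values of tested named genes, 75 lost their call and none changed sign. Depth limits CXCR4, ACKR3 in sensitive cells, and NTSR1 and F2RL3 where near 0, whose ratios rest on 1 to 3 reads.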
